A study of Rattus norvegicus with 4 samples.

Results

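The probes for the nuclear-encoded proteins of the mitochondrial respiratory chain were described in cultured rat peritubular myoid cells, the contractile cells that wrap the seminiferous tubules of the testis. They were taken by gene name as printed in the scanner files: every non-control probe whose name begins with Nduf, Uqcr, Atp5 or Cox4 to Cox8, or is Sdha, Sdhb, Sdhc, Sdhd, Cyc1 or Cycs. This gave 86 probes with 72 gene names, of 41012 non-control probes on the array. Complex I had 36 probes, complex II 4, complex III 6, cytochrome c 3, complex IV 19 and complex V 15, and 3 more carry a matching name without being chain subunits. There were 4 arrays (Agilent, one colour), of which 2 carried RNA of testosterone-treated cells and 2 that of controls, and within each group the sample names number them 1 and 2. All cells came from the testes of rats 40 days old and spent 4 days in a medium of defined growth factors, and the treated cells received testosterone at 1e-07 M in pulses. What the control cells received, and whether the numbers stand for separate animals, cultures or days, is not given in the sources used here, so the spread behind each p-value is that between arrays and may be technical only.

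The respiratory chain passes electrons from NADH through complex I, or from succinate through complex II, to ubiquinone, then through complex III and the small carrier cytochrome c to complex IV, where oxygen is reduced. Complexes I, III and IV pump protons across the inner mitochondrial membrane, and complex V, the ATP synthase, uses their return to make ATP. Most subunits are encoded in the nucleus, and a few hydrophobic ones by mitochondrial DNA. Several complex IV subunits exist as isoforms: a form found in most tissues beside forms of heart and skeletal muscle, lung or spermatogenic cells. Many nuclear promoters of the chain are known to be bound by the factors NRF1 and GABP, the second of which belongs to the ETS family. Testosterone acts through the androgen receptor, which peritubular myoid cells are known to express.

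Promoters are shown for 4 members because they hold the letters most often described for this gene family, and because the last pair belongs to the liver-type and muscle-type forms of one subunit, whose values are set side by side further on. RefSeq promoters (build GRCr8) were matched for 62 of the 72 genes, and the 250 bases before each start were searched on both strands for 7 short motifs. The letters GCGCATGCG, an NRF1 motif, were found in 6 of 62 member promoters (9.68%, against 1.35% of all 33469 promoters): those of Cycs, Atp5g2, Uqcrc1, Ndufa11, Atp5o and Atp5i. The ETS letters CCGGAAG were found in 18 (29.0% against 7.27%), AAGATGGCG for YY1 in 1 (1.61% against 0.693%) and TCAAGGTCA for the ERR receptors in 1 (1.61% against 0.388%). Letters that reach past the start are not counted, such as those for YY1 in Ndufb8, Ndufs4 and Ndufs7. The common letters CCAAT were found in 22 (35.5% against 34.0%) and the GC box GGGCGG in 24 (38.7% against 30.5%). The androgen response half-site AGAACA was found in 5, those of Cycs, Ndufb5, Ndufb2, Sdhd and Cox6b1 (8.06% against 17.5%). Counts of a motif on both strands can be 1 palindromic stretch, as for the NRF1 letters in Atp5g2. In the 4 sequences, written 5′ to 3′ on the gene's strand (all on the minus strand), capitals mark every match to any of the 7 motifs on either strand. A match is a run of letters, and binding was not measured here.
Cycs (chr4:80984768-80985017): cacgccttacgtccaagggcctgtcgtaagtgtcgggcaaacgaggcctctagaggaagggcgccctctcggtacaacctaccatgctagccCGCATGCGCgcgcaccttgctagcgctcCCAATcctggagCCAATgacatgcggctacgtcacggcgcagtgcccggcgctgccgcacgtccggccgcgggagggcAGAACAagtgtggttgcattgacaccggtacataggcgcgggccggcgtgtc
Atp5g2, now Atp5mc2 (chr7:135678219-135678468): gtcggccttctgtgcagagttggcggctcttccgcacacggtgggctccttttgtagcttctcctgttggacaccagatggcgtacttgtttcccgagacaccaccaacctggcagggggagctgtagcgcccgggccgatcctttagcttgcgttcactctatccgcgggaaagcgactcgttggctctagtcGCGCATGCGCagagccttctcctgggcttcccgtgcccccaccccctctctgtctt
Cox8a (chr1:213833624-213833873): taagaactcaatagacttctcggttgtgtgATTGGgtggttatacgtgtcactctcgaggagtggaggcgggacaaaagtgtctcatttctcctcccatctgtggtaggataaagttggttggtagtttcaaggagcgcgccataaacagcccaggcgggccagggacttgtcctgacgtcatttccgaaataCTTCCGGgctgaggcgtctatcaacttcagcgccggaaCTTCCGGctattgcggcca
Cox8h, now Cox8b (chr1:205408274-205408523): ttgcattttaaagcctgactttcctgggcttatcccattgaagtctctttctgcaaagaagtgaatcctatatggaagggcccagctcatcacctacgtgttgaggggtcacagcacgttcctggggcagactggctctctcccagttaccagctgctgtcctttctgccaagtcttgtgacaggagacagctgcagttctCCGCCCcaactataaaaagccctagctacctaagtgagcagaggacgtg
Cycs held the NRF1 letters, CCAAT at 2 places and the androgen half-site. Atp5g2 held the NRF1 letters alone among the 7. Cox8a held the ETS letters at 2 places and CCAAT, all on the opposite strand, and Cox8h held only a GC box.

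A level here is the log2 of the processed signal minus the array's own 75th percentile, so a level above 0 lies above that percentile. Since probes bind with different strength, levels were compared only within a probe, between arrays. Of the 86 probes, 82 were well above background on all 4 arrays. The Cox6b probe passed on the 2 arrays numbered 2 only, and a Ndufc2 probe, a Cox8h probe and Cox6c1 passed on 3 arrays. The detector was saturated for 6 probes on all 4 arrays (Atp5e, Atp5f1, Atp5i, Cox6a1, Ndufb4 and Ndufb8) and for Atp5o and Cox6c on 1, which limits how far a difference can be read for them. No probe matched any of the 13 subunits encoded by mitochondrial DNA.

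The names did not always stand for the protein they call up. The Cox6b probe is described in the files as uroplakin Ia, a bladder membrane protein, so the common form of that subunit was not measured by it. Cox6c1 is a pseudogene of Cox6c, and Cox4nb names a neighbour of the Cox4i1 gene, now Emc8. Another 5 probes, made from sequence tags, have coordinates that run opposite to their gene (2 for Cox8h, and 1 each for Cox5a, Ndufb3 and Ndufc2). Without these 8 probes 78 remained, and their counts and medians are in the closing section. Atp5s (now Dmac2l) and Ndufaf1, an assembly factor of complex I, are the remaining names outside the complexes.

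Between 63.5% and 68.2% of the non-control spots of an array were well above background, and all 4 arrays lay on 1 slide. Control 1 had 380 probes reading at least 1 log2 unit below each of the other arrays, 353 of them in columns 57 to 85 of the array. Of the chain, 19 probes lie in those columns and 0 of the 86 read that low. Over all probes the arrays separated by number more than by treatment: limma, with Benjamini-Hochberg adjustment, called 0 of 25918 probes between testosterone and control and 1513 of 26748 between number 2 and number 1. Germ cell markers moved with the number. Their summed linear level was 0.847 and 0.805 times the 75th percentile on testosterone 1 and control 1, and 7.00 and 6.92 times on testosterone 2 and control 2, and 7 of 11 tested marker probes were called higher in number 2 (0 without testosterone 2 or without control 2). Some of the 11 were tested only because they were detected on the arrays numbered 2, and among the 6 detected on all arrays 4 were called. Some markers of other cell types differed with the number too. Of 10 tested smooth muscle probes 9 were positive, and Tagln and Synpo2 were called higher. Synpo2 was tested only because both arrays numbered 2 detected it, and 8 probes of that list were detected on all arrays. Of 7 Leydig cell probes 6 were negative and Cyp11a1 was called lower, but Star was higher by 0.60 with the numbers apart. Hsd17b3, among the 6, was tested only because both arrays numbered 1 detected it. The summed Leydig level was 94.7 and 102 on testosterone 1 and control 1, and 122 and 106 on testosterone 2 and control 2. Lum was called higher in the fibroblast list, which had 7 positive and 1 negative differences. Lists of mixed direction held single calls: Kdr higher (endothelial, 3 positive and 2 negative) and Adgre1 higher (macrophage, 6 and 5). Cldn11 was called lower in the Sertoli cell list, which had 5 positive and 2 negative (median 0.13). The part of these cell types in the chain's differences was not tested. Calponin (Cnn1) was not well above background and actin Acta2 and myosin Myh11 had no probe by that name, while the contractile and filament genes Des, Tagln, Myl9, Actg2 and Tpm2 were detected.

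Testosterone against control asks whether the androgen changed expression of the chain. At this number of arrays no member was called in either direction: 0 of 85 tested, against 0 of 25918 probes overall (0.0%), with the smallest adjusted p in limma at 1.00. At an unadjusted p under 0.05 there were 0 members, against 0.806% of all probes. Differences were small, with 33 positive and 52 negative (38.8% positive, against 47.7% of all probes), a median of -0.02 (all probes -0.01) and an interquartile range from -0.07 to 0.03. The members' 95% confidence intervals reached a median of 0.57 log2 units to either side, so differences of that order in a single gene could not be told from none. An exact permutation test on 2 against 2 arrays cannot give a two-sided p under 0.33.

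By complex the picture was alike. Complex I had 17 positive and 19 negative differences (median -0.02), complex II 1 and 3 (-0.02), complex III 2 and 4 (-0.03), cytochrome c 1 and 2 (-0.02), complex IV 7 and 11 (-0.01) and complex V 5 and 10 (-0.03). The 2 treated arrays lay apart from both controls for 9 members. Higher in both were Ndufs1 and a Cox8h probe that runs opposite to its gene (2 members or 2.35%, against 6.12% of all probes). The Cox8h probe on the gene's own strand differed by -0.06 with the groups overlapping. Lower in both were 7 (8.24% against 8.93%), among them Ndufs5b, Sdhc, Cyc1, 1 Cycs probe and Cox6c1.

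**Figure D1:**
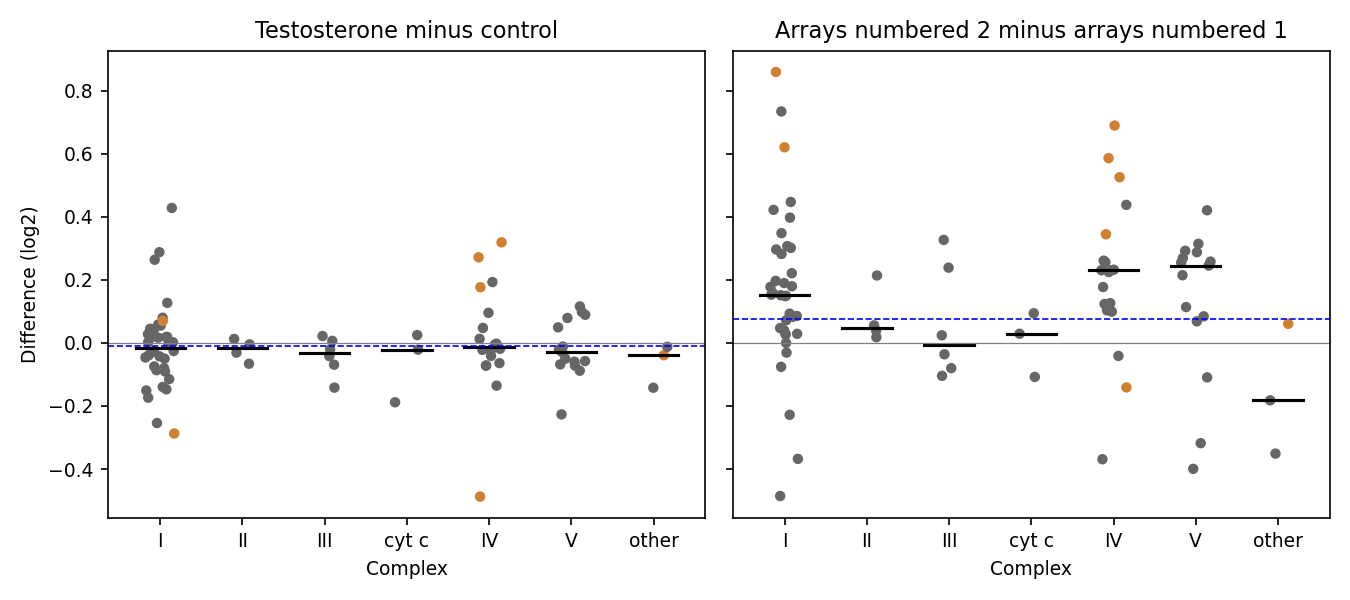
Difference of each respiratory chain probe (log2 units, vertical axis) by complex, for testosterone minus control (left) and arrays numbered 2 minus arrays numbered 1 (right), each a mean of 2 arrays against a mean of 2. Each point is a probe, black bars are medians, the dashed line is the median of all tested probes, and orange marks probes that run opposite to their gene, Cox6b, Cox6c1 and Cox4nb. The left medians lie between -0.04 and -0.01, and on the right complexes IV and V have medians of 0.23 and 0.25.

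The 2 largest positive differences among probes detected and unsaturated on all arrays were in complex I. Ndufs1, the largest iron-sulphur subunit of complex I (rn4, chromosome 9, 61811846 to 61811905), read 1.05 on testosterone 1, 0.20 on control 1, 0.55 on testosterone 2 and 0.55 on control 2. The arrays numbered 2 differed by 0.001 only, so that the groups no longer lay apart under median scaling or with the authors' deposited values, and the difference of 0.43 (95% interval -0.30 to 1.16, adjusted p = 1.00 in limma) came from number 1. Without control 1 it was 0.25, without testosterone 1 it was 0.18, and without testosterone 2 or control 2 it was 0.68 or 0.60. Its spot lies in column 73, within the columns where control 1 read low. Ndufs3, another core subunit of the same arm (column 80), read 4.29, 3.91, 4.55 and 4.35 in the same order, with control 1 again the lowest. Its difference of 0.29 became 0.07 without control 1. Whether the low columns of control 1 play a part in either was not tested.

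On the lower side, the 2 largest differences among such probes of complex I were those of 1 Ndufa9 probe, at -0.25 with the groups apart, and 1 Ndufa2 probe, at -0.17 with overlap. The other Ndufa9 and Ndufa2 probes differed by -0.04 and 0.08. Cyc1, the haem subunit of complex III that hands electrons to cytochrome c, read 2.49 on testosterone 1, 2.68 on control 1, 2.57 on testosterone 2 and 2.66 on control 2. Both treated arrays lay below both controls, by 0.14 on average (interval -0.63 to 0.34). Atp5a1, the alpha subunit of the ATP synthase head, read 3.95, 4.03, 3.40 and 3.77 in that order, a difference of -0.23 with the groups overlapping. Sdhc, a membrane anchor of complex II, differed by -0.07 with the groups apart, and Sdha, its flavin-bearing subunit, by -0.03 with overlap. Uqcrfs1, the Rieske iron-sulphur protein, differed by 0.02 and Uqcrc2, a core protein, by -0.07. In complex IV, Cox7b differed by -0.14 and Cox4i1, the common form of its regulatory subunit, by -0.07. Adjusted p in limma was 1.00 for each of these.

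The sign of the treatment difference depended on which numbered arrays were compared. On the arrays numbered 1, testosterone was below control for 75 of 86 probes, with a median of -0.11 (all probes -0.05, 39.2% positive). On the arrays numbered 2 it was above control for 64 of 86, with a median of 0.11 (all probes 0.03, 55.8% positive). The contrast of both numbers was smaller after normexp background correction and quantile normalization, where 63 were negative on number 1 (median -0.07) and 50 positive on number 2 (median 0.01). With the authors' deposited values the counts were 76 and 63. Leaving out testosterone 1 turned the members' median treatment difference to 0.10, and leaving out testosterone 2 brought it to -0.15. There is 1 array for each combination, so this difference between the numbers has no test.

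**Figure D2:**
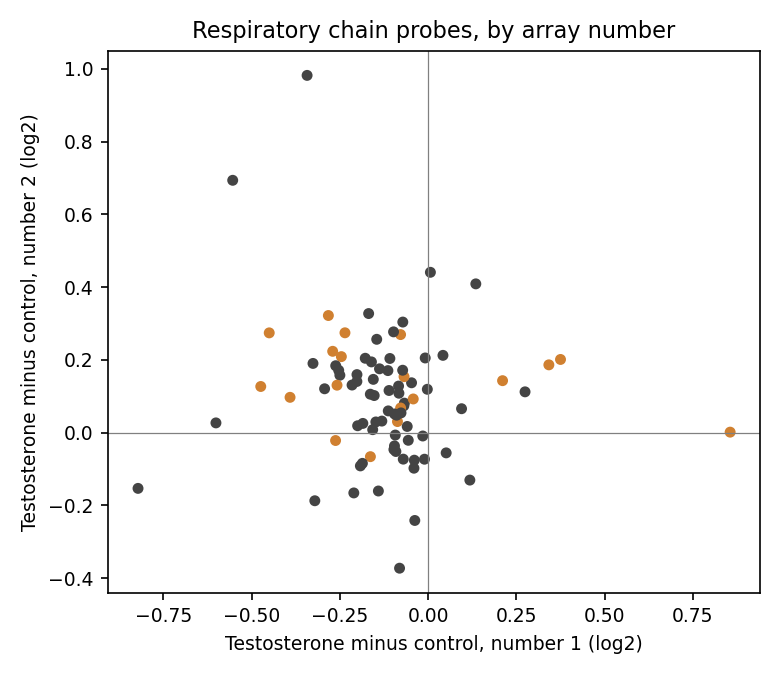
Testosterone minus control on the arrays numbered 1 (horizontal, log2 units) against the same on the arrays numbered 2 (vertical, log2 units), each point 1 of the 86 respiratory chain probes and 1 array against 1 array. Orange marks the 19 probes in array columns 57 to 85. Negative values on number 1 (75 probes) and positive values on number 2 (64 probes) put most points in the upper left.

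The arrays numbered 2 were set against those numbered 1 because the sample names give both groups these numbers and the whole table separated along them. No member was called in either direction: 0 of 86, against 4.19% of all probes called higher, 1.46% called lower and 5.66% either way. At an unadjusted p under 0.05 there were 13 members, which is 15.1% against 31.1% of all probes, and the smallest adjusted p in limma was 0.076, for a Ndufc2 probe. The differences had 69 positive and 17 negative (80.2% positive against 57.9%), with a median of 0.15 (all probes 0.08). In 40 members both arrays numbered 2 lay above both numbered 1 (39.0% of all probes did) and in 11 below (26.2%). The direction of the median depended on the scaling: after normexp and quantile normalization it was -0.02, with 35 positive and 51 negative (all probes -0.02), whereas median scaling gave 0.14 and the authors' deposited values 0.17. The number difference was also uneven between the groups, with 72 of 86 positive and a median of 0.29 among testosterone arrays, and 47 of 86 and 0.02 among control arrays.

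The number difference varied with brightness among all probes, so the members are given by level. Among probes with a mean level from 6 to 9, the 24 members were all positive with a median of 0.24, and all 779 probes at that level had a median of 0.24 with 89.1% positive. From 4 to 6 the 27 members had a median of 0.08 and all probes 0.11, and from 0 to 2 the 6 members had -0.06 and all probes -0.03. Below 0 the members' medians were above those of all probes, at 0.13 against -0.03 for levels from -2 to 0, with 6 members. From -4 to -2 the medians were 0.34 against 0.11, with 4 members, among them the Cox5a probe that runs opposite to its gene. Below -4 the medians were 0.60 against 0.38, but all 6 members there are probes that run opposite to their gene, Cox6b or Cox6c1. That lowest bin is therefore no result about chain transcripts.

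**Figure D3:**
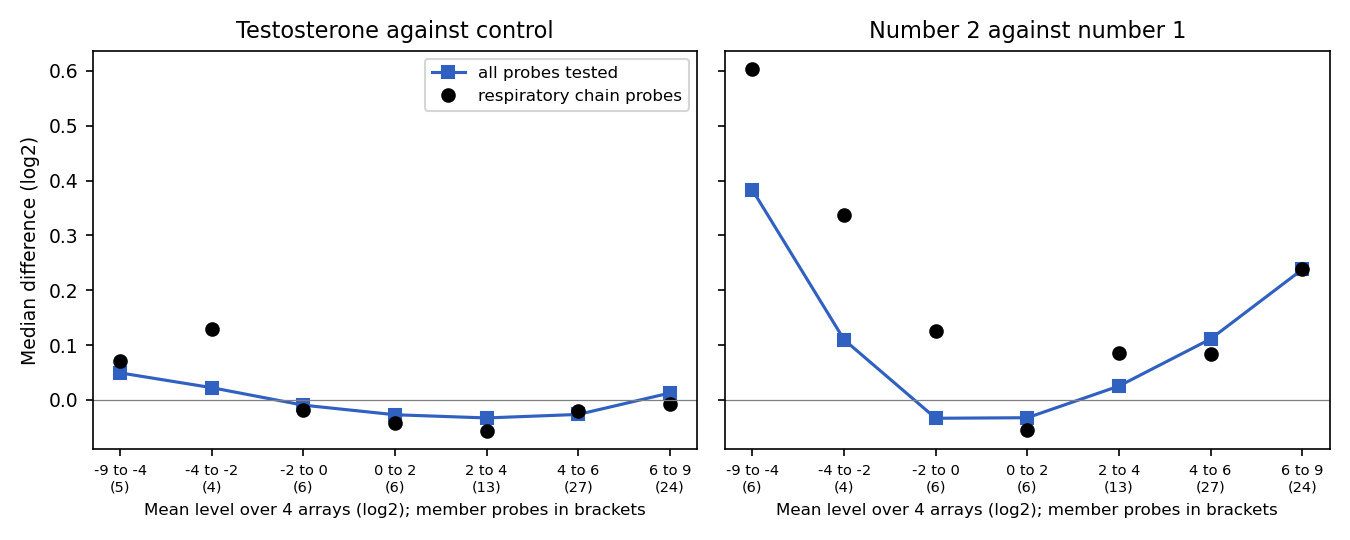
Median difference (log2 units, vertical axis) of the respiratory chain probes (black points) and of all tested probes (blue squares) in bins of the mean level over 4 arrays (horizontal axis, with the number of member probes in brackets). For number 2 against number 1 both stand at 0.24 in the brightest bin, and for testosterone against control at -0.01 and 0.01.

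Within complex I, 31 of 36 probes were positive in number 2 (median 0.15). The subunits were also split by role after their values had been seen, into 8 probes for the core subunits that carry out electron transfer and 28 for accessory subunits that surround them. The core had 6 positive and 2 negative (median 0.06), and the accessory subunits 25 and 3 (median 0.17). After quantile normalization these medians were -0.05 and -0.01. Among accessory subunits, Ndufa2 read 2.41 on testosterone 1, 2.31 on control 1, 2.84 on testosterone 2 and 2.77 on control 2 with 1 of its probes, a difference of 0.45 with the numbers apart, while its other probe differed by 0.15. Ndufa5 differed by 0.40 and a Ndufb3 probe by 0.42. In the other direction, Ndufs4, a small subunit whose loss is known to cause complex I deficiency (rn4, chromosome 2, 45840002 to 45840061), read -3.28, -3.40, -3.89 and -3.76. Both arrays numbered 2 were lower, by 0.49 (difference -0.49, interval -0.81 to -0.16, adjusted p = 0.087 in limma). Ndufv3l differed by -0.37 and Ndufa9, which helps join the 2 arms of the complex, by -0.23 with one probe and 0.15 with the other. The Ndufs4, Ndufv3l and lower Ndufa9 differences kept their negative sign under median scaling, quantile normalization and the authors' values and with any 1 array left out.

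A Ndufc2 probe (rn4, chromosome 1, 154641288 to 154641951) had the smallest adjusted p. It read -2.63 on testosterone 1, -2.97 on control 1, -1.97 on testosterone 2 and -2.16 on control 2, a difference of 0.73 (interval 0.28 to 1.19, adjusted p = 0.076). The brighter Ndufc2 probe, read at 6.40, 6.56, 6.71 and 6.70, differed by 0.22, and the probe that runs opposite to the gene by 0.86. All 3 were higher in number 2, in differing amounts.

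Complex II and cytochrome c moved little. All 4 complex II probes were positive (median 0.05), with Sdha at 0.21 and the others between 0.02 and 0.06, but all 4 were negative after quantile normalization (median -0.11). The 3 Cycs probes, for cytochrome c itself, differed by -0.11, 0.09 and 0.03. In complex III, Uqcrh, the hinge protein that supports the docking of cytochrome c, read 6.92, 6.98, 7.32 and 7.24, a difference of 0.33 with the numbers apart. Uqcrb, another small subunit, differed by 0.24 and also had its numbers apart. The core proteins and redox subunits stood near or below 0: Uqcrc2 at -0.10, Uqcrfs1 at -0.08, Uqcrc1 at -0.04 and Cyc1 at 0.02. Quantile normalization reduced Uqcrh to 0.04 and left Uqcrb at 0.20.

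In complex V the head of the enzyme differed from the rest in direction. Atp5a1 and Atp5b are the alpha and beta subunits, which form the catalytic head, and Atp5c1 is the gamma subunit that turns within it. Atp5a1 (rn4, chromosome 18, 74739347 to 74739406) read 3.95 on testosterone 1, 4.03 on control 1, 3.40 on testosterone 2 and 3.77 on control 2, a difference of -0.40 (interval -0.85 to 0.05, adjusted p = 0.193). Atp5b (rn4, chromosome 7, 1378451 to 1378510) read 4.12, 4.16, 3.78 and 3.86, a difference of -0.32 (interval -0.62 to -0.02, adjusted p = 0.145). Atp5c1 read 4.69, 4.78, 4.60 and 4.65, a difference of -0.11. For these 3 probes both arrays numbered 2 lay below both numbered 1, which is 20.0% of the enzyme's 15 probes against 26.2% of all probes. The other 12 probes of the enzyme had positive differences, 8 of them with the numbers apart (53.3% of the 15, against 39.0% of all probes).

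Atp5d and Atp5e, the delta and epsilon subunits of the same F1 part, differed by 0.26 and 0.29. The 4 peripheral stalk probes (Atp5f1, Atp5h, Atp5j and Atp5o) lay between 0.07 and 0.27. The c ring, which turns as protons pass, is made from Atp5g1, Atp5g2 and Atp5g3, genes that encode the same mature protein with different import signals. Atp5g1 read 5.51, 5.58, 6.12 and 5.82, a difference of 0.42 (interval 0.02 to 0.82, adjusted p = 0.150), the 2 Atp5g2 probes differed by 0.21 and 0.31, and the 2 Atp5g3 probes by 0.11 and 0.08. After quantile normalization Atp5a1, Atp5b and Atp5c1 stood at -0.56, -0.51 and -0.21, with Atp5b then past the threshold, and of the other 12 probes 7 were positive and 5 negative. The 3 head and shaft probes stayed negative with any 1 array left out, at -0.59 to -0.06. They were singled out after their values had been seen, and the difference between them and the other subunits was not tested.

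**Figure D4:**
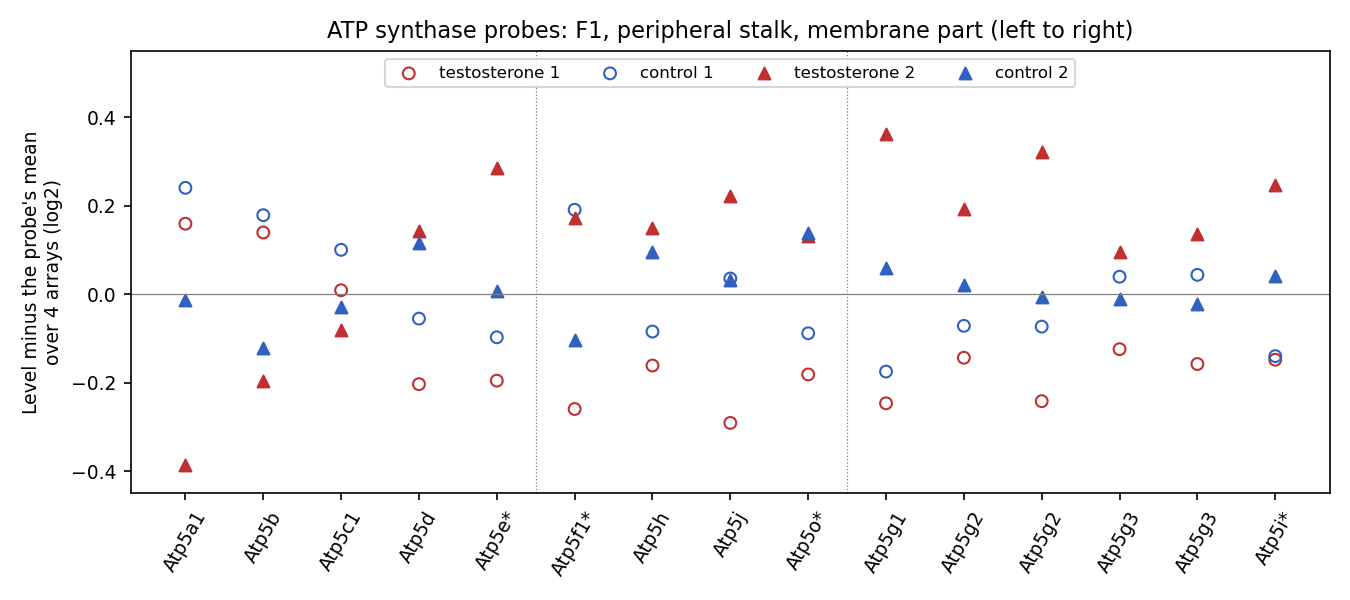
Level of each ATP synthase probe minus that probe's mean over the 4 arrays (log2 units, vertical axis), with open circles for arrays numbered 1, filled triangles for arrays numbered 2, red for testosterone and blue for control. Dotted lines divide F1, peripheral stalk and membrane part, and an asterisk marks a probe saturated on 1 or more arrays. Atp5a1, Atp5b and Atp5c1 have both triangles below both circles.

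Complex IV had 16 of 19 probes positive (median 0.23), and 13 had the numbers apart upward (68.4%, against 39.0% of all probes). Without Cox6b, Cox6c1 and the probes that run opposite to their gene, 14 remained. Of these, 12 were positive (median 0.20), with 10 apart upward and 1 downward. After quantile normalization, however, 10 of the 19 were positive and 9 negative (median 0.0011). In that setting 2 lay apart upward and 3 downward, against 27.2% and 34.7% of all probes. Cox5b, a zinc-binding subunit, differed by 0.26 and 0.23 with its 2 probes, and Cox5a by 0.23 with the probe along the gene and 0.53 with the one against it. Cox7b differed by 0.23, Cox7a2 by 0.18 and Cox7a2l, which helps join complexes III and IV, by 0.10. The isoforms known from particular tissues are given beside their common partners. Cox4i1 differed by 0.10 and Cox4i2, the lung form, by 0.13. Cox4i2 read -0.11, -0.03, 0.19 and -0.08, with the numbers overlapping. Cox6a1, the liver form, differed by 0.23, and Cox6a2, the heart and muscle form, read -1.50, -1.23, -1.29 and -1.51, a difference of -0.04 with overlap, and after quantile normalization this pair stood at -0.013 and -0.023. Cox8a, the common form, differed by 0.26 and read 7.01, 7.27, 7.48 and 7.31.

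Cox8h, the heart and muscle partner of Cox8a now called Cox8b, read 1.64 on testosterone 1, 1.90 on control 1, 1.46 on testosterone 2 and 1.33 on control 2 with the probe on its own strand (rn4, chromosome 1, 201057360 to 201057419). Both arrays numbered 2 were lower, by 0.37 on average (difference -0.37, interval -0.76 to 0.02, adjusted p = 0.174 in limma). The 2 probes that run against the gene differed by 0.69 and -0.14, but the first was not well above background on testosterone 1 and stood at 0.06 after quantile normalization. Of 6 tested probes of striated muscle markers, 4 were positive (3 after quantile normalization), against 57.9% of all probes. Among the 4 detected on all arrays, 2 were positive and 2 negative. Tnnc2 was tested only because both arrays numbered 2 detected it. Troponin Tnnt2 was called higher at 1.00 (adjusted p = 0.026 in limma, 0.060 to 0.177 with 1 array left out and 0.0749 with treatment as a block), while cardiac actin (Actc1) differed by -0.22 and myoglobin (Mb) by -0.04. No probe was found by name for Cox7a1, Cox7b2, Ndufa4 or Ndufa4l2.

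The forms known from spermatogenic cells varied widely between the numbers. Cox6b2, the testis form within the chain, read -1.45, -1.35, -1.30 and -1.25, a difference of 0.12 (adjusted p = 0.488). Cox8c, the testis form of the Cox8 subunit, is printed in the files under a locus number and so lies outside the naming rule. It read -7.70 on testosterone 1, -7.70 on control 1, -4.22 on testosterone 2 and -4.05 on control 2, not well above background on either array numbered 1, and was called higher in number 2 (at least 2.63-fold, adjusted p = 0.00673). The bound sets the bright mean against the lowest signal that passed on each dim array. Cyct, testis cytochrome c, was also detected on number 2 alone (adjusted p = 0.0224), at a level too low for a fold. Ldhc, the lactate dehydrogenase of sperm, read -5.36, -4.36, -0.99 and -1.22, a fitted difference of 3.76 (adjusted p = 0.0224) that was 1.38 after quantile normalization, and it was not well above background on testosterone 1. Of the 8 tested probes of germ cell isoforms, 3 were called higher in limma and the median difference was 1.58 (0.15 after quantile normalization). However, Cox8c, Cyct, Ldhc and Ldhal6b were tested only because both arrays numbered 2 detected them. Among the 3 probes detected on all arrays, Cox6b2 at 0.12, 1 Pdha2 probe at 0.38 and Gapdhs at -0.58, the median was 0.12 and the lowest adjusted p 0.223. Ldhc stands in the germ cell marker list too. The calls of Cox8c, Cyct and Ldhc were lost in limma without testosterone 2 (adjusted p = 0.0946, 0.175 and 0.179) or without control 2 (0.0722, 0.0906 and 0.0906), and that of Cyct with treatment as a block (0.0538) and after quantile normalization, which left it at 0.06 (adjusted p = 0.657), and Cox8c at 0.47. The protamine and transition protein genes Prm1, Tnp1 and Tnp2 were called higher by 2.87, 4.70 and 4.86 on the same arrays, and Tekt1 differed by 0.11. Fewer cells of a type and less RNA per cell cannot be told apart in these bulk samples, and the part of germ cell RNA in the chain's differences was not tested.

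**Figure D5:**
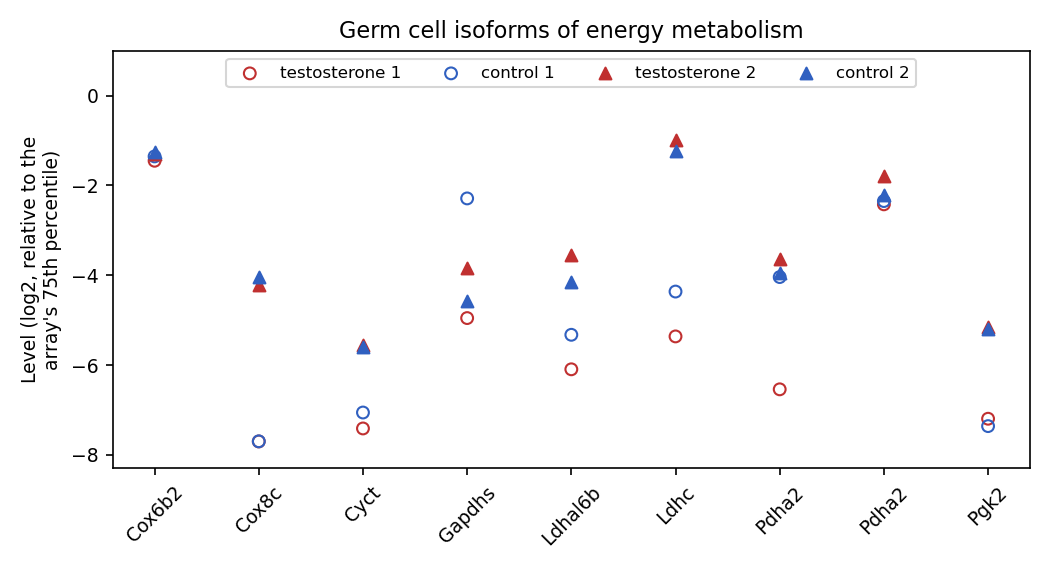
Level (log2 relative to the array's 75th percentile, vertical axis) of each probe for germ cell forms of energy metabolism genes, with open circles for arrays numbered 1, filled triangles for arrays numbered 2, red for testosterone and blue for control. Cox8c and Ldhc have both triangles more than 2 units above both circles, and the 4 Cox6b2 values lie between -1.45 and -1.25.

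The rest of the oxidative machinery was described from lists. Of 43 assembly factor genes, which build the complexes or insert their cofactors, 25 had a probe, with 11 positive and 19 negative treatment differences and 19 and 12 number differences (median 0.04). Atpaf1, which assembles the F1 head, differed by -0.42 between numbers, and Cox17, a copper chaperone, by 0.30. Of 26 regulators of mitochondrial biogenesis, 25 had a probe, with 14 and 14 treatment differences and 12 positive and 16 negative number differences (median -0.06). Tfam, which packs mitochondrial DNA and helps transcribe it, differed by 0.18 and Polg, the polymerase of that DNA, by -0.32 and -0.31. On none of the 4 arrays did the coactivator Ppargc1a pass the background test. Citrate cycle and pyruvate dehydrogenase genes (18 of 19) had 9 positive and 16 negative number differences (median -0.04) and 10 and 15 treatment differences. Carriers and other electron donors (22 of 23) had 13 and 15 number differences (median -0.02) and 10 and 18 treatment differences, with the ubiquinone synthesis gene Coq2 at -0.81 (adjusted p = 0.070) and the pore protein Vdac3 at 0.47 between numbers. None of these 4 lists had a member called in either comparison by limma, and at an unadjusted p under 0.05 there were 0 of 111 probes for treatment (0.806% of all probes) and 19 of 112 for number (31.1% of all probes). Between numbers, quantile normalization called 4 of 25 citrate cycle probes, 1 of 28 regulator probes and 1 of 28 carrier probes lower, against 5.65% of all probes. Leaving out columns 57 to 85 called 1 of 17 citrate cycle probes lower. The share over all probes is not given for that setting, so this call is no result about the list. With testosterone 1 left out, the assembly factors' median number difference was 0.003.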

How the data were processed

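Per the labels' protocols, Cy3-labelled cRNA made from oligo-dT-primed total RNA was hybridised to Agilent's 4x44k rat design. The deposited scanner files hold intensity values written by Feature Extraction 11.5.1.1, per the file headers, while version 10.5 stands in the submitters' processing notes, and the headers give build rn4. The processed signal is background-subtracted by that program. The authors' deposited value table holds log2 values with an unstated scaling and served as an alternative. Groups and numbers came from the sample titles.

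From the processed signals, levels were computed as log2 minus the 75th percentile of an array's non-control spots, without controls or spots flagged as outliers but with saturated ones. The 2 comparisons (testosterone against control, number 2 against number 1, each over all 4 arrays) were fitted at probe level with limma 3.58.1 (R 4.3.3). Tested probes were well above background on both arrays of 1 or more groups, with Benjamini-Hochberg adjustment over all of them and a threshold of 0.05. Arrays lie apart where both of a group exceed both of the other. The fit was tested on simulated data. Precision is limited by the 4 arrays. Alternatives were normexp (offset 50) with quantile normalization, median scaling, the authors' values, other filters and leaving out each array. Named probes are the 2 largest differences each way in each complex among probes detected and unsaturated on all arrays, the tissue isoforms, probes over 1 apart and up to 4 genes per list. Those outside this rule were chosen after their values were seen. The members and lists were chosen with earlier results of these data known. Gene names were updated through RefSeq accessions or symbols.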

Additional observations from a re-analysis of the deposited data

How the results depend on the processing

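With only 4 arrays, leaving 1 out leaves a lone array in a group, which is then assumed to vary like the others. The members' median treatment difference ranged from -0.15 to 0.10 as each array was left out, and the number of members with the groups apart from 24 to 66. For number 2 against number 1 these ranges were 0.072 to 0.23 and 62 to 80. A lone array lies apart from 2 others more easily than 2 arrays do from 2. The shares over all probes are not given for these counts, so they are no result about the chain. After normexp and quantile normalization, 19 members had the treatment groups apart (3 higher and 16 lower, against 1517 and 2733 of all 25918 probes), the median number difference was -0.021, and 3 members were called between numbers: Ndufa9 (-0.39) and Atp5b (-0.51) lower and a Ndufc2 probe (0.44) higher, which is 3.49% against 10.3% of all probes. The cause was not tested. With the replicate number as a block, 0 members were called for treatment and the median stayed at -0.02. Testosterone lay on the same side of control in both pairs for 28 members (8 higher, 20 lower). That rule is looser than having the groups apart, and its share over all probes is not given. Deviations of same-numbered arrays correlated at 0.589 over 24489 probes, but with 2 pairs they share only a number. Without the 8 probes of doubtful identity, the 78 left had medians of -0.02 for treatment and 0.14 for number, with 0 called in both. The signs of named differences changed in 8 of 305 values for treatment and 12 of 314 for number under settings that kept all arrays, and in 36 of 144 and 9 of 148 when an array was left out. Of the germ cell marker probes 7 of 11 were called between numbers, 6 of 11 after quantile normalization and 0 of 14 with no detection filter. Among probes detected on all arrays 4 of 6 were called, and without columns 57 to 85 the count was 3 of 4. The marker calls were lost without testosterone 2 or without control 2, where the median differences were 1.52 and 2.06. The germ cell isoform calls, 3 of 8, became 2 of 8 with treatment as a block and 0 of 9 with no detection filter. Without columns 57 to 85, which leaves Ldhc out, they were 2 of 4. The 3 isoform probes detected on all arrays held 0 calls, since the called probes are not among them. The isoform calls were also lost without testosterone 2 or without control 2, where the median differences were 1.45 and 1.66.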
